A study of Mus musculus with 12 samples.

Results

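The Fc gamma receptor genes of mouse bone marrow-derived macrophages (BMDMs) comprised Fcgr1, Fcgr3, Fcgr4 and Fcgr2b, together with Fcer1g, the adaptor chain of the activating receptors, and Fcgrt, the intracellular receptor for IgG. They were chosen by gene symbol, and all 6 were found among the 55335 genes of the deposited expression table. BMDMs are macrophages grown from bone marrow cells in the presence of M-CSF, the macrophage growth factor. The methods of the study describe marrow of C57BL/6 mice aged 8 weeks, kept for 7 days in 40 ng/ml M-CSF. RNA was sequenced from 12 libraries in 4 groups of 3. Wild-type and Nlrp3-/- macrophages were each sequenced as a control group, which received no stimulus, and as an LPS+ATP group. Nlrp3-/- mice are knockouts of the gene of an inflammasome sensor, bought from another supplier than the wild-type mice. LPS primes the inflammasome and ATP then triggers it. The labels give LPS for 4 h followed by ATP for 30 min, whereas the methods give 200 ng/ml LPS for 12 h followed by 3 mM ATP for 2 h, so the times were not settled here. Whether the 3 libraries of a group came from separate mice is not stated, so p-values measure only the spread between these libraries.

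Fc gamma receptors bind the constant part of IgG and let macrophages take up antibody-coated particles. The activating receptors, encoded by Fcgr1 (high affinity), Fcgr3 and Fcgr4, need the gamma chain encoded by Fcer1g, whose cytoplasmic tail carries an immunoreceptor tyrosine-based activation motif (ITAM). Src family kinases phosphorylate the motif, and the kinase Syk then docks there. Fcgr2b encodes the inhibitory receptor, with an inhibitory motif (ITIM) that recruits the phosphatase SHIP1. Fcgrt encodes the neonatal Fc receptor, which works inside the cell with beta-2 microglobulin and returns IgG and albumin from endosomes to the surface instead of sending them to lysosomes.

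The coding sequences of the opposed motifs are shown because they set Fcgr2b apart from the activating side. They were read from GENCODE M21 transcripts, with the codons of the motif tyrosines in capitals. The first covers residues 313 to 326 of 340 in Fcgr2b, with the tyrosine at residue 319. The other covers residues 61 to 83 of 86 in Fcer1g, with tyrosines at residues 65 and 76.
Fcgr2b ITIM: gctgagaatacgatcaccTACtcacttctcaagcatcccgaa
Fcer1g ITAM: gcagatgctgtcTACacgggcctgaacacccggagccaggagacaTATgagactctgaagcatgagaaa

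Fcgr3 and Fcgr2b are near copies over part of their length. The longest Fcgr3 transcript matched Fcgr2b at 96.5% identity over 509 bases, which is 37.8% of that transcript. The longest identical run in the coding sequences held 129 bases, at coding bases 263 to 391 of Fcgr3 and 278 to 406 of Fcgr2b, whereas every other pair of the 4 receptors shared at most 14 bases in a row. How reads from this stretch were assigned is not given in the sources used here, so the split between Fcgr3 and Fcgr2b is uncertain.
Fcgr3 and Fcgr2b shared run: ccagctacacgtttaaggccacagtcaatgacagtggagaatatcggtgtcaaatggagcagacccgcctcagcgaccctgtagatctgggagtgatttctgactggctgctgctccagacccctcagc

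Fcgr2b, Fcgr4 and Fcgr3 are neighbouring coding genes on chromosome 1, which also holds Fcer1g. Fcgr1 is on chromosome 3, and Fcgrt is on chromosome 7. The 250 bases before the start of Fcgr1, Fcgr4 and Fcgr2b are shown because all 3 rose with LPS+ATP, and those of Fcgr3 because it fell. They come from RefSeq (build GRCm38.p6), in which all 6 genes had an entry, and run 5′ to 3′ on the gene's strand. Capitals mark matches on either strand to GAGGAA (a form of the ETS site), the interferon-gamma activated site core TTCNNNGAA and the IRF core AANNGAAA. The Fcgr1 stretch lies at chr3:96293970-96294219 on the minus strand, the Fcgr4 stretch at chr1:171018676-171018925 on the plus strand, the Fcgr2b stretch at chr1:170976072-170976321 on the minus strand and the Fcgr3 stretch at chr1:171059404-171059653 on the minus strand.
Fcgr1 promoter: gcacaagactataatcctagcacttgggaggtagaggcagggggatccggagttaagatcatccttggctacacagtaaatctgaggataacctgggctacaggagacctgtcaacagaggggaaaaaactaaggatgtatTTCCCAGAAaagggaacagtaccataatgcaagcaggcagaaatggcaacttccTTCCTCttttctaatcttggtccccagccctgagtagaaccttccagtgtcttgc
Fcgr4 promoter: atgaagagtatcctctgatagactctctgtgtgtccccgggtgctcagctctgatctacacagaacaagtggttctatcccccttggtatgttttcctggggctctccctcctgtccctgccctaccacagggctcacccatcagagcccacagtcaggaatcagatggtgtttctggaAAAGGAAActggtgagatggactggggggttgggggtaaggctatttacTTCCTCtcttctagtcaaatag
Fcgr2b promoter: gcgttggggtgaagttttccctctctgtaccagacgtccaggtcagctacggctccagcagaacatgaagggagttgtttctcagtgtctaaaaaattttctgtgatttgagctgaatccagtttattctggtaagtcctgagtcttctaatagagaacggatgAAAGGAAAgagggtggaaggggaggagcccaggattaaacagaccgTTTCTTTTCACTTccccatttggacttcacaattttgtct
Fcgr3 promoter: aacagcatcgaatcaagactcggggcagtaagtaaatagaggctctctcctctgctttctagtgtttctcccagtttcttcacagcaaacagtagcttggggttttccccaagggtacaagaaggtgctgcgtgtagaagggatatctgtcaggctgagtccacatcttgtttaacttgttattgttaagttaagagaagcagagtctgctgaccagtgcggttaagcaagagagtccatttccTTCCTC

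Counting from the start site, the first bases of the Fcgr1 matches were at -109 for TTCNNNGAA and -55 for GAGGAA. In Fcgr4, AANNGAAA matched at -71 and GAGGAA at -22. In Fcgr2b, AANNGAAA matched at -86, -40 and -35, and the last pair of these overlap. In Fcgr3, GAGGAA matched at -6, and for its other annotated start at -15. Of 32536 promoters of the same length, 23.4% held GAGGAA, 7.04% held TTCNNNGAA and 21.3% held AANNGAAA. The promoters of Fcer1g and Fcgrt held none of these letters, and shorter forms of the ETS site were not searched for. The matches are letters in a window, and no binding was measured.

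The labels were checked before the comparisons. Nlrp3 stood at 9.24 to 33.6 FPKM in the 6 wild-type libraries and was listed at 0 in all 6 Nlrp3-/- libraries. FPKM counts fragments per kilobase of transcript, scaled to the mapped fragments of a library. Xist reached at most 0.0416 FPKM in wild-type and 32.8 to 56.3 FPKM in Nlrp3-/- libraries, and 4 Y-linked genes summed to 16.6 to 25.1 FPKM in wild-type and were listed at 0 in Nlrp3-/- libraries, so the sex of the donors and the genotype cannot be told apart. The summed macrophage markers (5 of 5 above 1 FPKM in each group) ran from 1982 to 2102 FPKM in wild-type control, 1500 to 1560 in wild-type LPS+ATP, 1292 to 1351 in Nlrp3-/- control and 1191 to 1211 in Nlrp3-/- LPS+ATP libraries. Most of this sum is Cd68, and its members did not move together. With LPS+ATP the mean of Cd68 went from 1450.4 to 814 FPKM in wild-type and from 877 to 620.4 FPKM in Nlrp3-/- macrophages, whereas Adgre1 went from 237 to 460.3 and from 184 to 327 FPKM. In these bulk samples, fewer cells of a type and less RNA per cell cannot be told apart. Relative depth spanned 1 to 1.22, and the depth in reads is unknown from FPKM. Scaling by the median ratio instead shifted the median of all genes on the log2 scale by 0.25 and 0.23 for stimulation in wild-type and Nlrp3-/- and by -0.12 and -0.15 for genotype in control and with LPS+ATP.

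In unstimulated macrophages Fcer1g was the most abundant of the 6 mRNAs, followed by Fcgr3, and both stood far above the other receptors. In wild-type control, Fcer1g was at 559 ± 17.8 FPKM and Fcgr3 at 424 ± 8.13 FPKM (SD, n = 3). Fcgr1 at 51.2 ± 1.17, Fcgr2b at 50.0 ± 4.15, Fcgr4 at 40.4 ± 2.02 and Fcgrt at 21.2 ± 0.770 FPKM followed, and only the libraries of Fcgr1 and Fcgr2b overlapped among neighbours in this order. With LPS+ATP the order of the wild-type levels became Fcer1g, Fcgr1, Fcgr3, Fcgr4, Fcgr2b and Fcgrt, where Fcgr1 overlapped with Fcgr3 and Fcgr4 with Fcgr2b. In Nlrp3-/- control it was Fcer1g, Fcgr3, Fcgr4, Fcgr1, Fcgr2b and Fcgrt, and Fcgr1 overlapped with Fcgr2b. In Nlrp3-/- LPS+ATP it was Fcer1g, Fcgr1, Fcgr3, Fcgr2b, Fcgr4 and Fcgrt, with no overlap between neighbours.

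**Figure D1:**
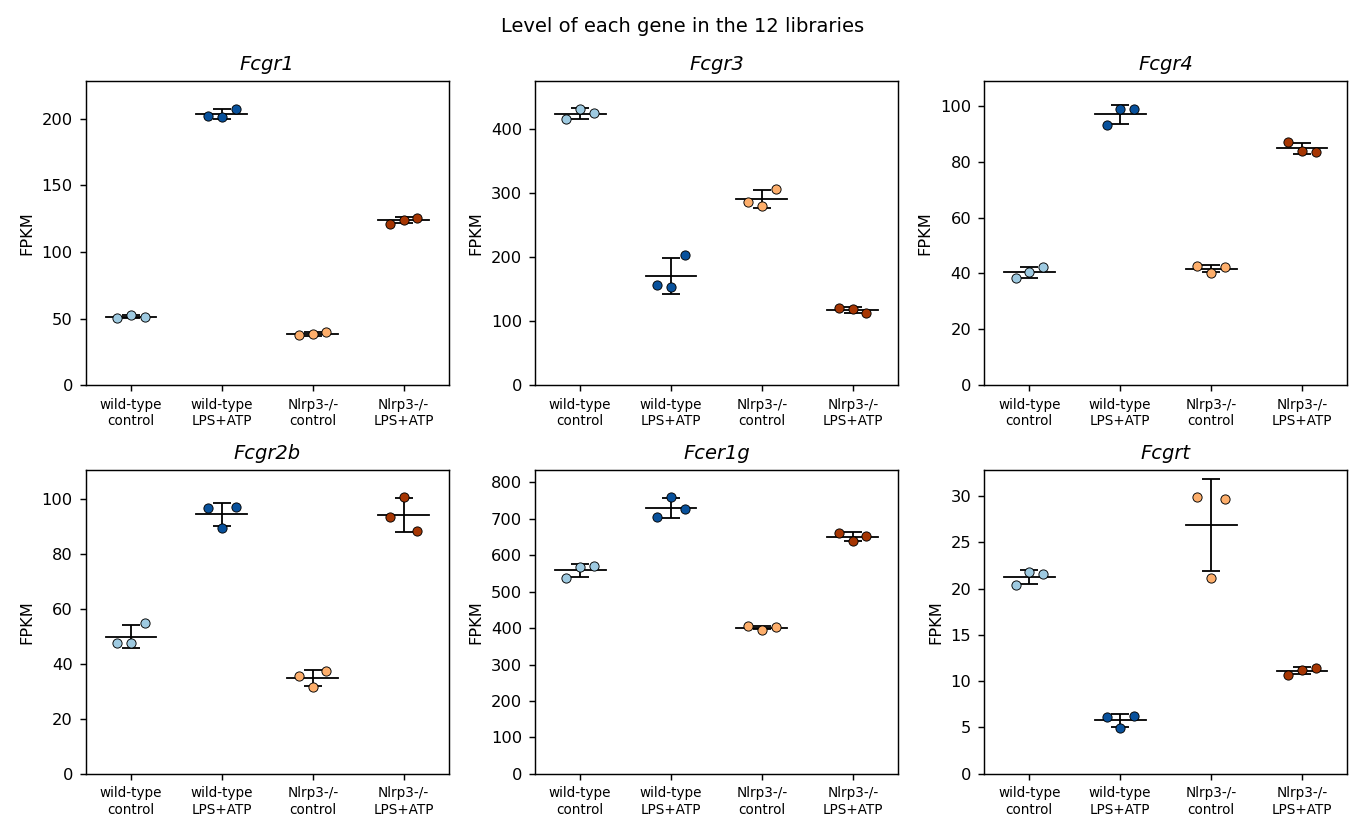
FPKM of each gene (y axis, from 0) in the 4 groups (x axis), with 1 point per library and the mean and SD as bars. Fcgr1, Fcgr4, Fcgr2b and Fcer1g were higher and Fcgr3 and Fcgrt lower in every LPS+ATP library than in every control library of the same genotype.

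The first question was how the receptors respond when the inflammasome is primed and triggered. With LPS+ATP, all 6 genes changed in both genotypes and in the same direction in each. Fcgr1, Fcgr4, Fcgr2b and Fcer1g rose, and Fcgr3 and Fcgrt fell. Past the test means an adjusted p under 0.05 in limma on log2(FPKM + 1), and a DEG in addition changed by 1 or more on that log2 scale, up or down, which is the scale of all log2 fold changes here. In wild-type, 6 of 6 were past the test, against 76.4% of all tested genes, and 4 were DEGs (2 higher, 2 lower), against 19.4%. In Nlrp3-/- macrophages, 6 of 6 were past the test, against 74.3%, and 5 were DEGs (3 higher, 2 lower), against 14.8%. The median log2 fold change of the 6 genes was 0.65 in wild-type and 0.85 in Nlrp3-/- macrophages, beside -0.25 and -0.24 over all tested genes. The DEGs were 3 higher and 1 lower in each genotype with median-ratio scaling.

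Fcgr1, the high-affinity receptor, rose most among the 6. Its wild-type level was 50.0, 52.4 and 51.3 FPKM in control and 202, 202 and 208 FPKM in LPS+ATP libraries. In Nlrp3-/- macrophages it was 37.4, 38.1 and 39.99 FPKM in control and 121, 124 and 126 FPKM with LPS+ATP. The stimulated libraries thus stood clear of the controls in each genotype, and the stimulated wild-type libraries were the highest of all. The rise was 3.98-fold in wild-type (log2 fold change 1.97, SE 0.0317, limma adjusted p = 3.87e-13) and 3.22-fold in Nlrp3-/- (log2 fold change 1.66, adjusted p = 2.12e-12).

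Fcgr3, an activating receptor of lower affinity, fell to well under its control level. Wild-type libraries held 416, 432 and 425 FPKM in control and 156, 153 and 204 FPKM with LPS+ATP. Nlrp3-/- libraries held 285, 279 and 306 FPKM in control and 121, 119 and 112 FPKM with LPS+ATP. The groups did not overlap, and wild-type LPS+ATP replicate 3 was the highest of the stimulated libraries. The fall was 2.48-fold in wild-type (log2 fold change -1.32, SE 0.0890, limma adjusted p = 9.42e-08) and 2.47-fold in Nlrp3-/- (log2 fold change -1.30, adjusted p = 1.40e-07). With median-ratio scaling the log2 fold changes were -0.99 and -1.01, so that in wild-type the fall no longer reached the size of a DEG.

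Fcgr4, the activating receptor encoded between Fcgr2b and Fcgr3, rose while its neighbour Fcgr3 fell. It stood at 38.2, 40.6 and 42.2 FPKM in wild-type control and at 93.2, 99.1 and 99.1 FPKM in wild-type LPS+ATP. In Nlrp3-/- macrophages it stood at 42.6, 40.3 and 42.3 FPKM in control and at 87.2, 83.9 and 83.5 FPKM with LPS+ATP. The controls of both genotypes overlapped, whereas each stimulated wild-type library was above each stimulated Nlrp3-/- library. The log2 fold change was 1.25 (SE 0.0421, limma adjusted p = 1.97e-10) in wild-type and 1.01 (adjusted p = 1.84e-09) in Nlrp3-/- macrophages.

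Fcgr2b, the inhibitory receptor with the ITIM shown above, also rose. Its level was 47.7, 47.5 and 54.8 FPKM in wild-type control and 96.9, 89.6 and 97.0 FPKM in wild-type LPS+ATP. It was 35.5, 31.7 and 37.4 FPKM in Nlrp3-/- control and 93.6, 101 and 88.5 FPKM in Nlrp3-/- LPS+ATP. The stimulated libraries of both genotypes overlapped, while the controls did not overlap. The rise was 1.89-fold in wild-type (log2 fold change 0.91, SE 0.0741, limma adjusted p = 5.12e-07) and 2.70-fold in Nlrp3-/- (log2 fold change 1.41, adjusted p = 1.37e-08). The wild-type rise was under the size of a DEG, and reached it with median-ratio scaling (log2 fold change 1.23).

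Fcer1g, the gamma chain with the ITAM shown above, rose by less than the receptors that rose. Wild-type levels were 538, 567 and 570.4 FPKM in control and 704, 759 and 727 FPKM with LPS+ATP. Nlrp3-/- levels were 406, 396 and 402 FPKM in control and 663, 638 and 652 FPKM with LPS+ATP. No groups overlapped, and the Nlrp3-/- control libraries were the lowest. The log2 fold change was 0.39 (SE 0.0325, limma adjusted p = 6.81e-07) in wild-type and 0.70 (adjusted p = 4.76e-09) in Nlrp3-/- macrophages, and neither rise was a DEG.

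Fcgrt, the recycling receptor, had the lowest level of the 6 in all groups and fell with LPS+ATP. It was at 20.4, 21.8 and 21.6 FPKM in wild-type control and at 6.17, 4.99 and 6.22 FPKM in wild-type LPS+ATP. In Nlrp3-/- macrophages it was at 29.9, 21.2 and 29.7 FPKM in control and at 10.7, 11.2 and 11.5 FPKM with LPS+ATP. Nlrp3-/- control replicate 2 stood within the wild-type control range, apart from the other 2 libraries of its group. The fall was 3.67-fold in wild-type (log2 fold change -1.72, SE 0.116, limma adjusted p = 9.62e-08) and 2.42-fold in Nlrp3-/- (log2 fold change -1.19, adjusted p = 2.97e-06). The Nlrp3-/- fall was -0.91 on the log2 scale with median-ratio scaling. Fcgrt overlaps the antisense gene Gm45669 and Fcgr2b the antisense gene Gm38204, and since the strand of the counting is not stated, reads from each pair cannot be told apart. Fcgr4 also overlaps the small RNA gene Gm26110 and Fcgr3 the microRNA gene Mir6546.

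**Figure D2:**
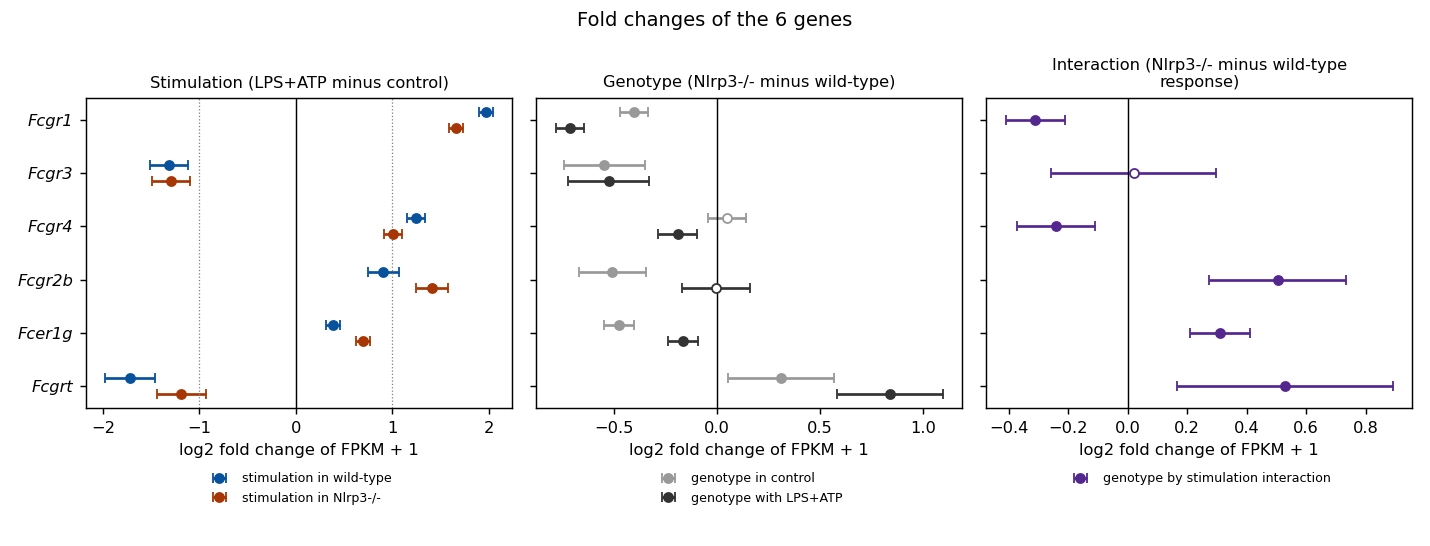
Log2 fold changes of FPKM + 1 (x axis) for the 6 genes (y axis) in the stimulation, genotype and interaction comparisons, with 95% confidence intervals from limma. Filled points were past the test and open points were not (Fcgr4 for genotype in control, Fcgr2b for genotype with LPS+ATP, Fcgr3 for the interaction). Dotted lines in the stimulation panel mark a log2 fold change of 1 in either direction.

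Markers of other cells that carry Fc receptors moved with stimulation as well. The 6 neutrophil markers summed to 313 to 348 FPKM in wild-type control and 103 to 120 FPKM in wild-type LPS+ATP libraries, and to 1712 to 1762 and 475 to 501 FPKM in the Nlrp3-/- groups, where 5, 3, 5 and 4 of the 6 stood at a mean of 1 FPKM or more in these groups in turn. The 5 B cell markers summed to at most 5.29 FPKM in any library, and the 5 mast cell and basophil markers to at most 11.8 FPKM. T and NK cell markers summed to at most 3.17 FPKM, and dendritic cell markers to at most 5.49 FPKM. Fcer1a, which defines mast cells and basophils, was listed at 0 in all libraries of every group but Nlrp3-/- control. The part of these cells in the levels of Fcgr3 and the other receptors was not tested.

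The second question was whether macrophages without Nlrp3 differ in receptor levels. Most of the 6 genes were lower in Nlrp3-/- than in wild-type macrophages, by less than 2-fold, and Fcgrt was the gene past the test that was higher. In control, 5 of 6 were past the test (1 higher, 4 lower), against 47.8% of all tested genes, and 0 were DEGs, against 6.71%. With median-ratio scaling 0 were higher and 4 lower in control. With LPS+ATP, 5 of 6 were past the test (1 higher, 4 lower), against 48.5%, and 0 were DEGs, against 5.05%. The median log2 fold change of the 6 genes was -0.44 in control and -0.18 with LPS+ATP, beside 0.09 and 0.11 over all tested genes. Each genotype comparison shares libraries with the stimulation comparisons above.

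Among the activating receptors, Fcgr1 was lower in Nlrp3-/- macrophages by a log2 fold change of -0.40 in control (limma adjusted p = 9.71e-07) and -0.71 with LPS+ATP (adjusted p = 1.32e-08). Fcgr3 was lower by a log2 fold change of -0.55 in control (adjusted p = 0.000378) and -0.53 with LPS+ATP (adjusted p = 0.000501). Fcgr4 did not pass the test in control, with a log2 fold change of 0.05 and a 95% interval from -0.04 to 0.14, and this value turned to -0.02 with upper-quartile and -0.10 with median-ratio scaling. With LPS+ATP it was lower by a log2 fold change of -0.19 (adjusted p = 0.00292). Fcgr1 and Fcgr3 were thus lower in both states, and Fcgr4 in the stimulated state.

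Fcgr2b was lower in Nlrp3-/- control libraries, with a log2 fold change of -0.51 (limma adjusted p = 0.000165). With LPS+ATP the difference was -0.00 on the log2 scale with a 95% interval from -0.17 to 0.16 (adjusted p = 0.968). With median-ratio scaling it was -0.19 (adjusted p = 0.0452). Fcer1g was lower by a log2 fold change of -0.48 in control (adjusted p = 3.08e-07) and -0.16 with LPS+ATP (adjusted p = 0.00148). Fcgrt was higher in Nlrp3-/- LPS+ATP libraries by a log2 fold change of 0.84 (adjusted p = 0.000112). In control its log2 fold change was 0.31 (adjusted p = 0.0466), where the libraries overlapped and the call was lost with median-ratio scaling (log2 fold change 0.16, adjusted p = 0.274) and when any of the 3 wild-type libraries or Nlrp3-/- replicate 1 or 3 was left out (limma adjusted p = 0.0786 to 0.166).

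Beside these genotype differences, the fibroblast markers (5 of 5 above 1 FPKM in each group) summed to 157 to 161 FPKM in wild-type control and 1164 to 1180 FPKM in Nlrp3-/- control, and to 180.1 to 183 and 890 to 905 FPKM with LPS+ATP. The neutrophil markers given above were also higher in the Nlrp3-/- groups. The summed macrophage markers given above were lower in the Nlrp3-/- groups, but not each marker was. Mertk stood at 33.2 to 35.6 FPKM in Nlrp3-/- control and 32.2 to 32.5 FPKM in wild-type control, Csf1r with LPS+ATP had means of 178 (wild-type) and 176 FPKM (Nlrp3-/-), and the libraries of Itgam overlapped between the genotypes. Their part in the genotype differences of the receptors was not tested.

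The third question was whether the response to LPS+ATP depends on Nlrp3. The interaction term, which is the Nlrp3-/- response minus the wild-type response on the log2 scale, was past the test for 5 of 6 genes (3 higher, 2 lower), against 27.7% of all tested genes, and 0 reached the size of a DEG, against 2.15%. The response of the activating receptors Fcgr1 and Fcgr4 was smaller in Nlrp3-/- macrophages, by -0.31 (limma adjusted p = 0.000419) and -0.24 (adjusted p = 0.0118). The rise of the inhibitory receptor Fcgr2b was larger by 0.50 (adjusted p = 0.00447), and that of Fcer1g by 0.31 (adjusted p = 0.000500). The term of Fcgrt was 0.53 (adjusted p = 0.0341), a smaller fall in Nlrp3-/- macrophages, and the call was lost when wild-type control replicate 2 or 3, wild-type LPS+ATP replicate 2 or any Nlrp3-/- LPS+ATP library was left out (limma adjusted p = 0.0503 to 0.0750). For Fcgr3 the term was 0.02 with a 95% interval from -0.26 to 0.30 (adjusted p = 0.929). The median term of the 6 genes was 0.17, beside 0.02 over all tested genes.

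The make-up of the IgG receptor mRNAs shifted from mostly Fcgr3 to a mixture led by Fcgr1. The FPKM of Fcgr1, Fcgr3, Fcgr4 and Fcgr2b summed to 566 ± 12.3 in wild-type control and 566 ± 35.7 in wild-type LPS+ATP, and to 405 ± 18.7 and 420 ± 9.35 in Nlrp3-/- control and LPS+ATP (SD, n = 3). Fcgr3 made up 75.0% ± 0.735 of the sum in wild-type control and 71.6% ± 0.363 in Nlrp3-/- control. With LPS+ATP it made up 30.1% ± 3.00 in wild-type and 27.9% ± 0.583 in Nlrp3-/- macrophages. Fcgr1 went from 9.06% ± 0.105 to 36.1% ± 1.61 of the sum in wild-type and from 9.50% ± 0.248 to 29.5% ± 1.06 in Nlrp3-/- macrophages. On the deposited scale the summed level overlapped between control and LPS+ATP libraries, while its parts changed. It ran from 551 to 573 FPKM in wild-type control and 543 to 607 FPKM in wild-type LPS+ATP. In Nlrp3-/- libraries it ran from 389 to 426 FPKM in control and 410 to 428 FPKM with LPS+ATP. The share of Fcgr2b, the inhibitory receptor, was 8.84% ± 0.648 and 8.59% ± 0.396 in the controls and 16.7% ± 0.868 in wild-type and 22.4% ± 0.997 in Nlrp3-/- LPS+ATP. Fcgr4 held 7.13% ± 0.221 in wild-type control, 17.2% ± 0.976 in wild-type LPS+ATP, 10.3% ± 0.351 in Nlrp3-/- control and 20.2% ± 0.533 in Nlrp3-/- LPS+ATP. These shares carry the uncertain split of reads between Fcgr3 and Fcgr2b.

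**Figure D3:**
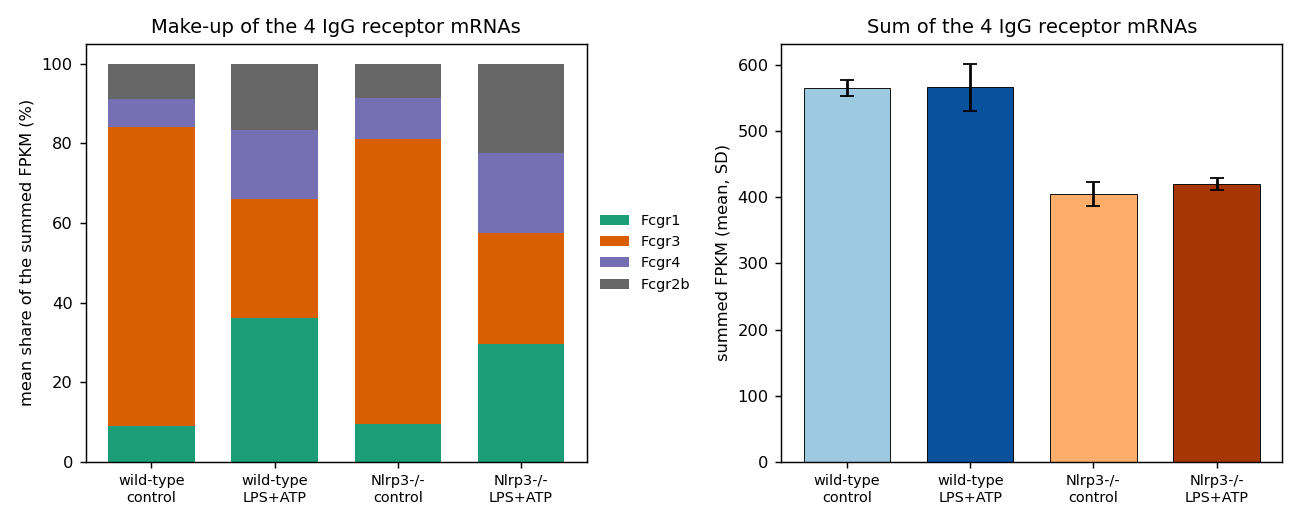
Left, mean share (%) of Fcgr1, Fcgr3, Fcgr4 and Fcgr2b in their summed FPKM in the 4 groups. Right, the summed FPKM, with bars for the mean and SD of 3 libraries: 566 in both wild-type groups, and 405 and 420 in the Nlrp3-/- groups.

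Ratios within a library do not depend on the scaling between libraries. Each activating receptor was therefore set against Fcgr2b, and the gamma chain against the sum of Fcgr1, Fcgr3 and Fcgr4. The mean ratio of Fcgr1 to Fcgr2b was 1.03 ± 0.0849 in wild-type control and 2.16 ± 0.0841 in wild-type LPS+ATP, and 1.11 ± 0.0820 and 1.32 ± 0.0953 in Nlrp3-/- control and LPS+ATP (SD, n = 3). Stimulation raised this ratio by a mean of 0.66 on the log2 scale over both genotypes (exact permutation test of 400 regroupings, two-sided p = 0.005, the smallest it can give, adjusted p = 0.0133 over 8 ratio tests). The ratio of Fcgr3 to Fcgr2b went from 8.52 ± 0.686 to 1.81 ± 0.257 in wild-type and from 8.34 ± 0.411 to 1.25 ± 0.0553 in Nlrp3-/- macrophages, a mean of -2.49 on the log2 scale (exact permutation p = 0.005, adjusted p = 0.0133). Relative to the inhibitory receptor, then, Fcgr1 was higher and Fcgr3 lower in stimulated macrophages.

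The ratio of Fcgr4 to Fcgr2b moved in opposite directions in the genotypes. It was 0.802, 0.854 and 0.771 in wild-type control libraries and 0.962, 1.11 and 1.02 with LPS+ATP. In Nlrp3-/- libraries it was 1.20, 1.27 and 1.13 in control and 0.932, 0.833 and 0.944 with LPS+ATP. The log2 difference was 0.35 in wild-type and -0.41 in Nlrp3-/- macrophages, with a mean of -0.03 (exact permutation p = 0.79, adjusted p = 0.79), and the opposite signs were not tested against each other. The ratio of Fcer1g to the sum of Fcgr1, Fcgr3 and Fcgr4 was 1.08 in the control group of each genotype, with SDs of 0.0161 and 0.0427, and 1.55 ± 0.125 in wild-type and 2.00 ± 0.0416 in Nlrp3-/- LPS+ATP. It rose by a mean of 0.70 on the log2 scale (exact permutation p = 0.005, adjusted p = 0.0133). Gamma chain mRNA thus stood higher relative to the summed Fcgr1, Fcgr3 and Fcgr4 mRNAs after LPS+ATP. Other receptors that use the gamma chain were outside this sum. Of 7 tested, 4 were past the test and higher and 2 lower in wild-type, and 4 higher and 3 lower in Nlrp3-/- macrophages. Of all tested genes, 76.4% and 74.3% were past the test in either direction. Among them, Clec4e went from 11.4 to 621 FPKM in wild-type and from 15.6 to 499 FPKM in Nlrp3-/- macrophages.

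None of the 4 ratios passed the test for genotype. The mean log2 difference was -0.30 for Fcgr1 to Fcgr2b (exact permutation p = 0.085, adjusted p = 0.113), -0.28 for Fcgr3 to Fcgr2b (p = 0.045, adjusted p = 0.08), 0.19 for Fcgr4 to Fcgr2b (p = 0.165, adjusted p = 0.189) and 0.18 for Fcer1g to the sum (p = 0.05, adjusted p = 0.08). Without wild-type control replicate 3 the adjusted p of Fcgr3 to Fcgr2b was 0.03 (log2 difference -0.31), and without Nlrp3-/- control replicate 3 that of Fcer1g to the sum was 0.02 (log2 difference 0.20, exact permutation tests). These means join unlike states. The log2 difference of Fcgr1 to Fcgr2b was 0.11 in control and -0.71 with LPS+ATP, and that of Fcer1g to the sum was 0.00 in control and 0.37 with LPS+ATP. Within 1 state, 3 against 3 libraries cannot give a permutation p under 0.1.

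**Figure D4:**
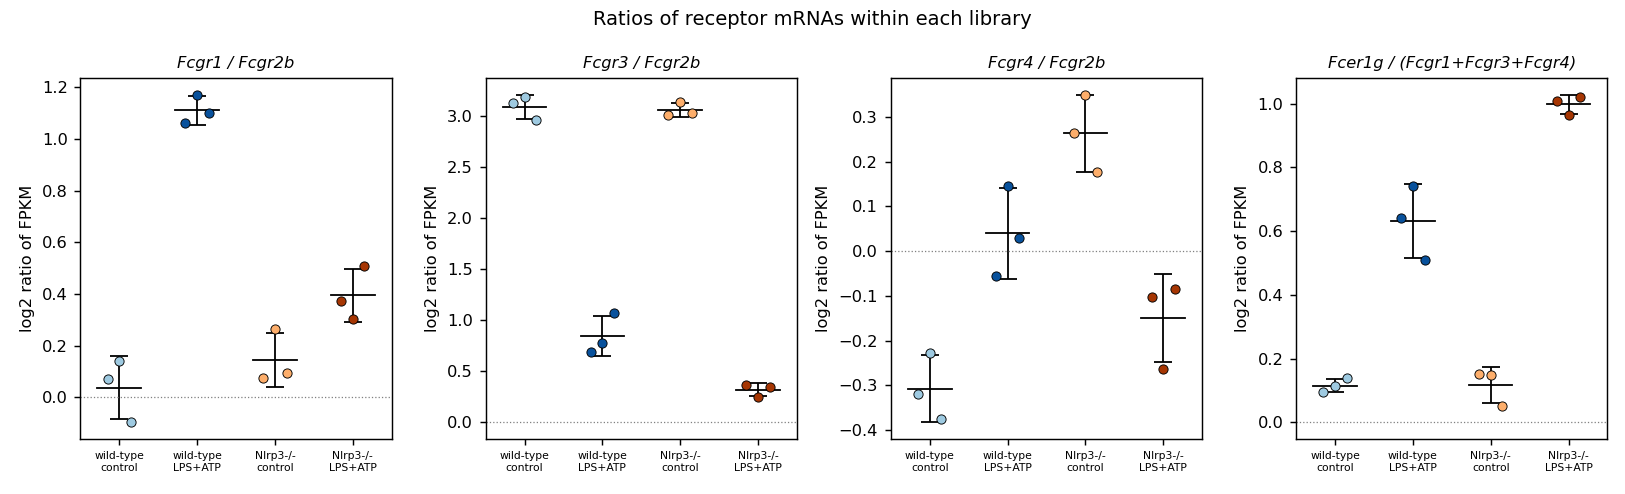
Log2 ratio of FPKM within each library (y axis) for the 3 activating receptors against Fcgr2b and for Fcer1g against the sum of these 3, in the 4 groups (x axis), with 1 point per library and the mean and SD as bars. Fcgr1 to Fcgr2b was highest in wild-type LPS+ATP, and Fcer1g to the sum in Nlrp3-/- LPS+ATP.

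The genes whose pattern over the 12 libraries was most like each receptor were found by Pearson's r of log2(FPKM + 1). These r values mostly follow the 4 group means, and the libraries share their groups. Csf2rb2 and Bcl2a1b have close paralogs and Pisd-ps1 a parent gene, so their own levels are uncertain. Near copies were searched for only for the 6 receptor genes, so levels of the other genes named here may be uncertain too. For Fcgr1 the nearest were Ifit1bl1 (r = 0.999), Csf2rb2 (r = 0.999) and Bcl2a1b (r = 0.999). For Fcgr4 they were Batf (r = 0.998), F10 (r = 0.998) and Psma5 (r = 0.997), and for Fcgr2b Ube2l6 (r = 0.992), Dhx58 (r = 0.992) and Trim34a (r = 0.991). Dhx58 encodes a RIG-I-like receptor, and Batf a transcription factor of the AP-1 family. The genes nearest to Fcgr3 were Rab7b (r = 0.993), Cds2 (r = 0.991) and Iqgap1 (r = 0.989). For Fcer1g they were B4galt5 (r = 0.994), Ms4a6b (r = 0.994) and Sdc3 (r = 0.992), and for Fcgrt Gm9800 (r = 0.995), Pisd-ps1 (r = 0.991) and Kifc5b (r = 0.991). Among the 6 genes themselves, r was 0.970 between Fcgr1 and Fcgr4, -0.978 between Fcgr1 and Fcgrt and -0.880 between Fcgr3 and Fcgr4.

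The partners of the receptors did not move as one. B2m, the light chain of the neonatal Fc receptor, rose while Fcgrt fell, with a log2 fold change of 0.88 in wild-type (limma adjusted p = 1.27e-10) and 0.80 in Nlrp3-/- macrophages (adjusted p = 4.17e-10). Tyrobp, which encodes DAP12, another ITAM adaptor of macrophages, fell while Fcer1g rose. It went from 536 to 183 FPKM in wild-type (log2 fold change -1.54, adjusted p = 8.03e-10) and from 440 to 176 FPKM in Nlrp3-/- macrophages (log2 fold change -1.32, adjusted p = 4.19e-09). The 2 tested adaptors other than Fcer1g, Tyrobp and Hcst, were both past the test and lower in each genotype, but with median-ratio scaling 1 of them in Nlrp3-/- macrophages. Of all tested genes, 76.4% and 74.3% were past the test in wild-type and Nlrp3-/- macrophages. Past it and lower were 6701 and 6789 of 12622. These pathway lists were written with earlier results of the data known.

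Of 7 tested receptors that also signal through the gamma chain, 6 changed with LPS+ATP in wild-type (4 higher, 2 lower, 5 DEGs) and 7 in Nlrp3-/- macrophages (4 higher, 3 lower, 4 DEGs), against 76.4% and 74.3% of all tested genes past the test and 19.4% and 14.8% DEGs. Clec4e, which encodes Mincle, a C-type lectin receptor for mycobacterial glycolipid, went from 11.4 to 621 FPKM in wild-type (log2 fold change 5.65) and from 15.6 to 499 FPKM in Nlrp3-/- macrophages (log2 fold change 4.92). Pira2, an activating paired immunoglobulin-like receptor, had log2 fold changes of -1.88 in wild-type and -2.33 in Nlrp3-/- macrophages. For Lilra6 of the same family they were -1.60 and -1.75. The Pira genes are a family of similar copies, so their reads may have been split between genes. Receptors that use the same adaptor thus moved in both directions.

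Of 12 other Fc receptor genes, 4 passed the filter on low values, and all 4 changed in each genotype (2 higher, 2 lower, 3 DEGs). Of all tested genes, 76.4% and 74.3% were past the test and 19.4% and 14.8% DEGs. Fcrls, an Fc receptor-like gene of macrophages, fell, with log2 fold changes of -1.90 in wild-type and -1.23 in Nlrp3-/- macrophages. Fcrlb, whose protein stays inside the cell, went from 0.196 to 2.88 FPKM in wild-type (log2 fold change 1.70) and from 0.418 to 4.21 FPKM in Nlrp3-/- macrophages (log2 fold change 1.88). Trim21, the cytosolic antibody receptor, had log2 fold changes of 1.55 and 1.56. The Nlrp3-/- DEGs of this list were 2 higher and 0 lower with median-ratio scaling.

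The signalling genes downstream of the ITAM were counted next. Of 28 activating signalling genes, 23 changed with LPS+ATP in wild-type (9 higher, 14 lower, 10 DEGs) and 26 in Nlrp3-/- macrophages (10 higher, 16 lower, 6 DEGs), beside the same 76.4% and 74.3% of all tested genes past the test and 19.4% and 14.8% DEGs. The median log2 fold change of the list was -0.24 and -0.39, beside -0.25 and -0.24 over all tested genes. Malt1, a paracaspase that links Syk signalling to NF-kB, had log2 fold changes of 3.56 in wild-type and 3.08 in Nlrp3-/- macrophages. Vav3, a guanine nucleotide exchange factor, had log2 fold changes of -1.98 in wild-type and -2.11 in Nlrp3-/- macrophages. With median-ratio scaling the wild-type split was 13 higher and 10 lower, and the Nlrp3-/- split 11 higher and 12 lower. The DEGs went from 5 higher and 5 lower to 6 and 1 in wild-type and from 3 and 3 to 5 and 1 in Nlrp3-/- macrophages.

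Of 12 inhibitory signalling genes, 8 changed in wild-type (2 higher, 6 lower, 3 DEGs) and 10 in Nlrp3-/- macrophages (2 higher, 8 lower, 1 DEG), against 76.4% and 74.3% of all tested genes past the test and 19.4% and 14.8% DEGs. Their median log2 fold change was -0.22 and -0.37. Inpp5d, which encodes the phosphatase SHIP1 that docks at the ITIM of Fcgr2b, went from 43.2 to 20.1 FPKM in wild-type (log2 fold change -1.07, limma adjusted p = 1.56e-10), while Fcgr2b rose. In Nlrp3-/- macrophages the log2 fold change of Inpp5d was -0.74. Cblb, a ubiquitin ligase, had log2 fold changes of -1.10 in wild-type and -0.37 in Nlrp3-/- macrophages. Dok2, an adaptor that restrains immunoreceptor signalling, had log2 fold changes of -1.28 in wild-type and -1.12 in Nlrp3-/- macrophages. With median-ratio scaling the wild-type split became 6 higher and 5 lower with 0 DEGs, and the Nlrp3-/- split 5 higher and 4 lower with 0 DEGs.

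Of 23 tested genes of the phagocytic cup and actin list, 19 changed in wild-type (2 higher, 17 lower, 7 DEGs) and 20 in Nlrp3-/- macrophages (3 higher, 17 lower, 5 DEGs). Beside them, 76.4% and 74.3% of all tested genes were past the test and 19.4% and 14.8% were DEGs. Over all 12622 tested genes, 6701 and 6789 were past the test and lower. The median log2 fold change of the list was -0.55 and -0.43. Gsn, which encodes the actin-severing protein gelsolin, went from 201 to 45.2 FPKM in wild-type (log2 fold change -2.13) and from 187 to 55.2 FPKM in Nlrp3-/- macrophages (log2 fold change -1.74). Coro1a, a coronin of the phagocytic cup, had log2 fold changes of -1.85 and -1.55. Marcks, an actin-binding protein kinase C substrate, had log2 fold changes of -1.67 in wild-type and -1.38 in Nlrp3-/- macrophages. For Dock2, an exchange factor for Rac, they were -1.51 and -1.63. With median-ratio scaling the splits were 5 higher and 10 lower in wild-type and 4 higher and 10 lower in Nlrp3-/- macrophages.

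**Figure D5:**
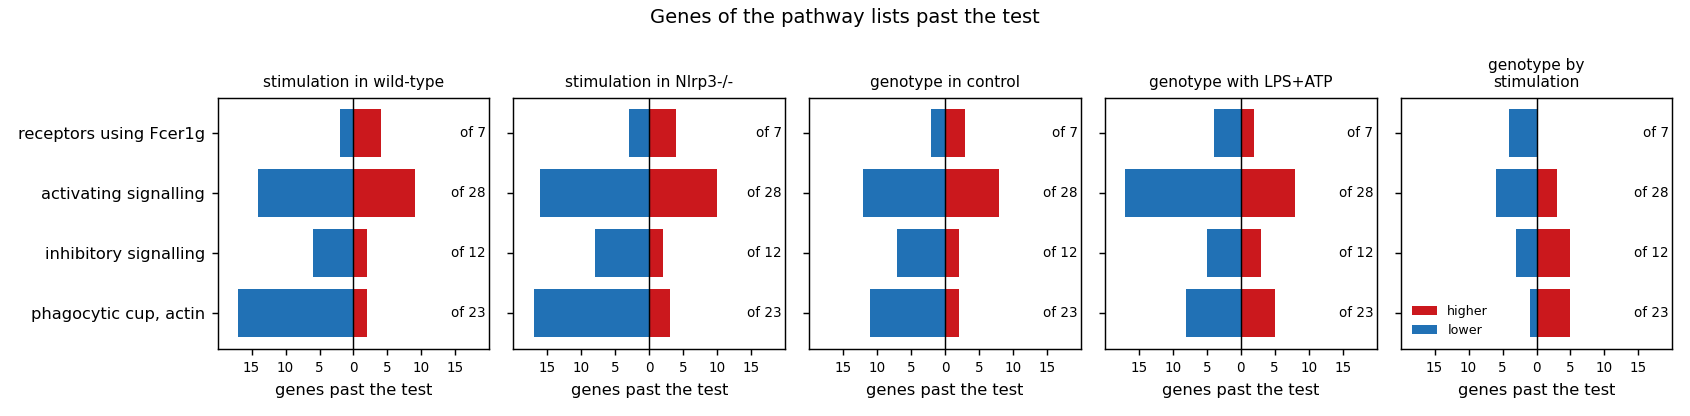
Number of genes past the test (x axis), higher to the right and lower to the left, in the lists of other receptors using Fcer1g, activating signalling, inhibitory signalling and the phagocytic cup with actin (y axis), for the 5 comparisons, with the number tested at the right. Of the 23 tested phagocytic cup and actin genes, 17 were lower after LPS+ATP in each genotype, and 10 with median-ratio scaling. Of all 12622 tested genes, 6701 in wild-type and 6789 in Nlrp3-/- macrophages were past the test and lower on the deposited scale.

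For genotype, the activating list had 2 DEGs in control and 0 with LPS+ATP. The inhibitory list and the phagocytic cup and actin list had 0 in each state. Of all tested genes, 47.8% differed in control and 48.5% with LPS+ATP, and 6.71% and 5.05% were DEGs. For the interaction, 27.7% of all tested genes were past the test and 2.15% were DEGs. In lists this small, such DEG counts do not set the lists apart from all tested genes. Of the 28 activating genes, 20 differed in control (8 higher, 12 lower) and 25 with LPS+ATP (8 higher, 17 lower). Src was a DEG in control, higher in Nlrp3-/- macrophages with a log2 fold change of 1.236 (limma adjusted p = 0.000222). Lat2, an adaptor related to LAT, was a DEG in control and lower, going from 72.1 FPKM in wild-type to 32.0 FPKM (log2 fold change -1.15, adjusted p = 2.52e-07). Of 12 inhibitory genes, 9 differed in control (2 higher, 7 lower) and 8 with LPS+ATP (3 higher, 5 lower). With median-ratio scaling the LPS+ATP splits were 5 higher and 19 lower for the activating list and 3 higher and 8 lower for the inhibitory list. Of 23 phagocytic cup and actin genes, 13 differed in each state (2 higher and 11 lower in control, 5 higher and 8 lower with LPS+ATP), and with median-ratio scaling 1 was higher and 16 lower in control and 5 higher and 12 lower with LPS+ATP. For the interaction, 9 activating genes (3 higher, 6 lower), 8 inhibitory genes (5 higher, 3 lower) and 6 phagocytic cup and actin genes (5 higher, 1 lower) were past the test, with 0 DEGs in any list.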

How the data were processed

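The 12 libraries, 3 per group, were made from Trizol RNA with an Illumina TruSeq RNA kit. The authors deposited FPKM values per gene and library. Per the labels, the submitters' processing notes name GRCm39 and DESeq2 1.24.0 without their roles. The aligner and counter are not given in the sources used here, and no scaling between libraries is stated.

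Because FPKM allows no count test, log2(FPKM + 1) was tested in limma 3.58.1 (R 4.3.3), with 1 mean per group, a trend in the variance and Benjamini-Hochberg adjustment. A gene entered if 3 or more libraries reached 1 FPKM (12622 of 55335, all 6 receptor genes included). Log2 fold changes understate changes of low genes. Log2 ratios were tested by exact permutation within strata, adjusted over 8 tests. The fit was first tested on simulated data.

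The receptor genes, the 7 pathway lists and the markers were chosen with earlier results of these data known. The genes named from a list were at most the 3 DEGs with the largest absolute log2 fold change in each list and comparison, with B2m and Tyrobp always, and some items that the rule names are not reported here. For each receptor gene, the 3 genes of highest r were named. Gene neighbours, overlaps and transcripts came from GENCODE M21 and promoters from RefSeq (GRCm38.p6), not the build of the files, so gene coordinates are not given. Near copies needed 95% identity over 20% of the longest transcript in blastn 2.17.0+. Python 3.11.15 was used with pandas 2.3.3, numpy 2.4.6, matplotlib 3.10.9 and scipy 1.17.1. Alternatives were another pseudocount (0.1), no filter or a filter of 5 FPKM, TPM, upper-quartile or median-ratio scaling, no trend, the compared groups alone, the replicate number as a block, and leaving out each library.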

Additional observations from a re-analysis of the deposited data

Results flagged for a closer look

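The responses of 5 of the 6 genes to LPS+ATP differed between the genotypes by the interaction term of limma, on the log2(FPKM + 1) scale as Nlrp3-/- minus wild-type response. The terms were -0.31 for Fcgr1, -0.24 for Fcgr4, 0.50 for Fcgr2b, 0.31 for Fcer1g and 0.53 for Fcgrt, and 27.7% of all tested genes were past the same test. Fcgr1 rose by a log2 fold change of 1.97 in wild-type and 1.66 in Nlrp3-/- macrophages, and Fcgr2b by 0.91 and 1.41. The term of Fcgrt had a limma adjusted p of 0.0341, which was between 0.0503 and 0.0750 without any of 6 single libraries. The donors' sex and the mouse supplier went with the genotype, so neither can be told apart from it.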

How the results depend on the processing

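The counts of the 6 genes past the test or called DEGs stayed within 1.5 times the reported count under all 160 alternatives run, a wide limit for 6 genes. The count past the test ran from 4 to 5 for genotype in control and for the interaction. For genotype with LPS+ATP it ran from 5 to 6. The count of DEGs ran from 4 to 5 for stimulation in each genotype. Of 508 log2 values under alternatives, 476 kept their direction and their side of an adjusted p of 0.05. The 508 values were the limma fold changes of the 6 genes and, from exact tests, the ratio of Fcer1g to the sum of Fcgr1, Fcgr3 and Fcgr4. Another 19 lost this call, 2 gained it and 11 changed sign. For the Fcer1g ratio, stimulation lost the call with the replicate block, and genotype gained it without Nlrp3-/- control replicate 3. All 508 limma fold changes of the named pathway genes kept both. The size limit of a DEG was not part of this count. With median-ratio scaling, Fcgr3 lost its DEG call in wild-type stimulation (log2 fold change -0.99) and Fcgr2b gained one (1.23). The DEGs of the inhibitory list went from 3 to 0 there. Signs changed only for values that were not past the test, and the cause was not tested. Fcgr4 for genotype in control was -0.0226 with upper-quartile and -0.10 with median-ratio scaling. Fcgr2b for genotype with LPS+ATP was 0.0182 with TPM, and -0.0525 to 0.0398 when single libraries were left out. The interaction term of Fcgr3 was -0.0271 with upper-quartile and -0.0164 with median-ratio scaling, and -0.0528 to 0.152 when single libraries were left out. Fcgrt for genotype in control also lost its call with a pseudocount of 0.1, no filter, upper-quartile scaling, no trend or the compared groups alone, and its interaction term without a filter (adjusted p = 0.0825). The genotype difference in log2 ratio ran from -0.32 to -0.22 for Fcgr3 to Fcgr2b when single libraries were left out. For Fcer1g to the sum of Fcgr1, Fcgr3 and Fcgr4 it ran from 0.15 to 0.21.

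The replicate numbers were not taken as pairs, since the deviations of same-numbered libraries had correlations of -0.0565 to 0.0528, 0 of 12 over 0.1, and 3 of 12 libraries correlated best with their own number. With the replicate number as a block, the limma calls of the 6 genes were those reported (the interaction term of Fcgr2b was 0.50), and the count of DEGs in wild-type stimulation went from 2452 to 2453. The stimulation ratios kept their values under the block (0.66 for Fcgr1 to Fcgr2b, -2.49 for Fcgr3 to Fcgr2b, 0.70 for Fcer1g to the sum of Fcgr1, Fcgr3 and Fcgr4), with adjusted p = 0.0833 each from 64 exact sign flips, which cannot give a p under 0.0312.

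Among all tested genes, median-ratio scaling moved the share of genes past the test that were higher from 30.5% to 49.8% for stimulation in wild-type, 27.6% to 49.7% in Nlrp3-/-, 69.6% to 44.5% for genotype in control and 74.0% to 45.6% with LPS+ATP, and that of higher DEGs from 42.5% to 61.5% and 44.7% to 64.4% for stimulation. A pseudocount of 0.1 raised the DEGs from 2452 to 3702 and 1874 to 2847 for stimulation, 847 to 1428 and 637 to 1406 for genotype and 271 to 634 for the interaction, and TPM to 1285, 1175 and 501 for the last 3. A filter of 5 FPKM, with fewer genes tested, left 515 DEGs for genotype in control, and 6262 and 6062 genes past the test for stimulation. With a pseudocount of 0.1 the activating list had 10 DEGs instead of 6 for stimulation in Nlrp3-/- and 2 instead of 0 for the interaction. FPKM without counts limits the precision that can be given for low genes such as Fcgrt.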
